A study of Drosophila melanogaster with 3 samples.

Results

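The genes of the proteasome subunits of Drosophila melanogaster were taken as the protein-coding genes whose symbol begins with Prosalpha, Prosbeta, Rpn or Rpt and goes on with a digit. The rule found 48 of the 13945 protein-coding genes of the Ensembl annotation. Of these, 32 are the broadly expressed subunit genes and 16 are testis-type copies, told apart by a symbol that ends in a digit and then T or R, with or without a further number. The split rests on the symbols alone, since expression was not measured here. The peaks came from ChIP-seq of Squeeze (sqz), a zinc finger transcription factor known for its role in neurons of the embryonic nerve cord. The 3 biological replicates were embryos 0 to 16 h old, both sexes together and used whole, of a transgenic line that stably carries sqz with GFP fused at its C-terminal end. They form 1 group, with no other genotype, age or treatment. All 3 libraries thus share the tagged allele, each pools many embryonic stages and all tissues, and the labels do not say what drives the tagged gene.

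The proteasome breaks down proteins that carry ubiquitin chains. Its barrel-shaped core is built of outer alpha rings, through which substrates enter, and inner beta rings, which hold the proteolytic sites. A cap on the core contains a ring of Rpt ATPases, which unfold the substrate, and non-ATPase Rpn subunits, which bind, position and deubiquitinate it. In Drosophila, several core and cap subunits have additional gene copies that are known for expression in the male germ line, and the broadly expressed genes are known as housekeeping genes.

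A gene was called marked when the summit of a peak, the position of its highest signal, lay within 1 kb of an annotated transcription start site (TSS). In the pooled list of 30000 peaks, 8 proteasome genes were marked. The sequence at the best pooled summit is shown for 5 of them, because these are the places at proteasome promoters where the pooled sqz signal peaked. Each is read from the Release 6 assembly (dm6) as held by RefSeq, within 100 bases on each side of the summit, left out where an untranslated exon is annotated, and written 5′ to 3′ on the strand of the gene. Capitals mark matches to any of 7 words searched on both strands: TATCGATA, the DNA replication-related element (DRE) bound by Dref; GTCACACT, the core of promoter motif 1; TGACNNNGC, the antioxidant response element; GAGAG, read by GAGA factor; TATAAA, the TATA box, which reads TTTATA on the other strand; and the E-boxes CACGTG and CAGCTG. None of these words is contained in another. Matches were taken at any position, so a TATAAA match need not be a working TATA box. The stretch of Prosalpha4 is chrX:16275918-16276045 (plus strand), that of Rpt3 chrX:11124789-11124989 (plus), that of Rpn11 chr2L:5059945-5060145 (minus), that of Rpn9 chr3R:23733126-23733251 (minus) and that of Prosbeta6 chr3L:16610419-16610558 (minus).
Prosalpha4: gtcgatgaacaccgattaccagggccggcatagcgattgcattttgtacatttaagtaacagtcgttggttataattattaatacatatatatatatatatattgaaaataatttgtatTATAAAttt
Rpt3: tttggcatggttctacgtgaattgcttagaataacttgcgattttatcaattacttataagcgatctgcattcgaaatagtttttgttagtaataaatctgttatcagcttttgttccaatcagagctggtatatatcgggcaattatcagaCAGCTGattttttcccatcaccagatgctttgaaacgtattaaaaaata
Rpn11: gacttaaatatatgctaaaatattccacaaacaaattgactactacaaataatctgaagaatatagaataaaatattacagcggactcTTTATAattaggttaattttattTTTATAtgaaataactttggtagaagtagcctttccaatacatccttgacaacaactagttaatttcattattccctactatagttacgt
Rpn9: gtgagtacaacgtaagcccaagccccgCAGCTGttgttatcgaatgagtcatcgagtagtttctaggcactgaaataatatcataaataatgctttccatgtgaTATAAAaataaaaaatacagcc
Prosbeta6: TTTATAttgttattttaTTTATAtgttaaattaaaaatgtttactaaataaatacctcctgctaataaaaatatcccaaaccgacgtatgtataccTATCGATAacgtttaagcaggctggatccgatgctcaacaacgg
The stretches are rich in A and T, with a GC content of 27.3% at Prosalpha4, 32.8% at Rpt3, 25.9% at Rpn11, 37.3% at Rpn9 and 30.0% at Prosbeta6. Prosbeta6 holds the DRE word, Rpt3 and Rpn9 hold CAGCTG, and Prosalpha4, Rpn11, Rpn9 and Prosbeta6 hold the TATA word. In full windows of 201 bases around the best pooled summit of the 8 marked genes, the TATA word was present in 5, CAGCTG in 2, and DRE, motif 1 and GAGAG in 1 each, while the antioxidant response element and CACGTG were in 0. Over all 30000 pooled summits such windows held TATAAA in 25.8%, CAGCTG in 8.14%, DRE in 1.01%, motif 1 in 0.95%, GAGAG in 26.7%, the antioxidant response element in 5.64% and CACGTG in 2.38% of cases. With 8 windows, each window is 12.5 percentage points, so these shares are descriptions only.

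Of the 48 proteasome genes, 3 were marked by the thresholded list of 6578 peaks (6.25%, 95% Wilson interval 2.15 to 16.8%), against 20.5% of all protein-coding genes. All 3 were broadly expressed genes, which is 3 of 32 (9.38%, 3.24 to 24.2%). None of the 16 testis-type copies was marked, which allows a share of up to 18.8%. In the pooled list 8 of 48 were marked (16.7%, 8.7 to 29.6%), against 37.3% of all genes. Again all 8 were broadly expressed, 8 of 32 (25.0%, 13.3 to 42.1%), while the testis-type copies stood at 0 of 16 with the same limit. The upper bound for all 48 thus lay under the share of all genes in both lists. That for the 32 broadly expressed genes lay above it. Thresholded summits were also asked to be met within 100 bp among the strongest 6578 peaks of replicates 1 and 2, without replicate 3. The count of 3 was then 1, while the share of all genes was 14.4% in place of 20.5%. The differences from all genes were not tested, because the data hold 1 group and genes are not replicates, and the intervals cover counting error only.

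By role, the alpha ring had 2 thresholded genes of 12, Prosalpha4 and Prosalpha5, and the same 2 in the pooled list, beside 20.5% of all genes in the thresholded and 37.3% in the pooled list. Both belong to its 7 broadly expressed genes, of which they are 28.6% (8.22 to 64.1%). The beta ring, whose Prosbeta1, Prosbeta2 and Prosbeta5 subunits carry the proteolytic sites, had 0 of 13 in the thresholded list, which allows up to 23.1%, and 1 of 13 in the pooled list, Prosbeta6. The base ATPases had 0 of 9 thresholded genes, which allows up to 33.3%, and 2 of 9 pooled ones, Rpt2 and Rpt3. The non-ATPase subunits had 1 of 14 in the thresholded list, Rpn13, and 3 of 14 in the pooled list, Rpn9, Rpn11 and Rpn13. Among broadly expressed genes alone, the pooled share was 28.6% for the alpha ring and 14.3% for the beta ring. It was 33.3% for the base ATPases and 25.0% for the non-ATPase subunits. In the thresholded list these shares were 28.6%, 0.0%, 0.0% and 8.33%, in the same order. With the copies included, the thresholded shares of the alpha ring, 16.7% (4.7 to 44.8%), and of the non-ATPase subunits, 7.14% (1.27 to 31.5%), had overlapping intervals. Both limits of the unmarked classes reached above these shares. None of the 3 proteolytic subunits was marked in either list, but 3 genes are too few for a useful limit. Prosbeta2 was marked in replicate 1, at rank 7129.

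**Figure D1:**
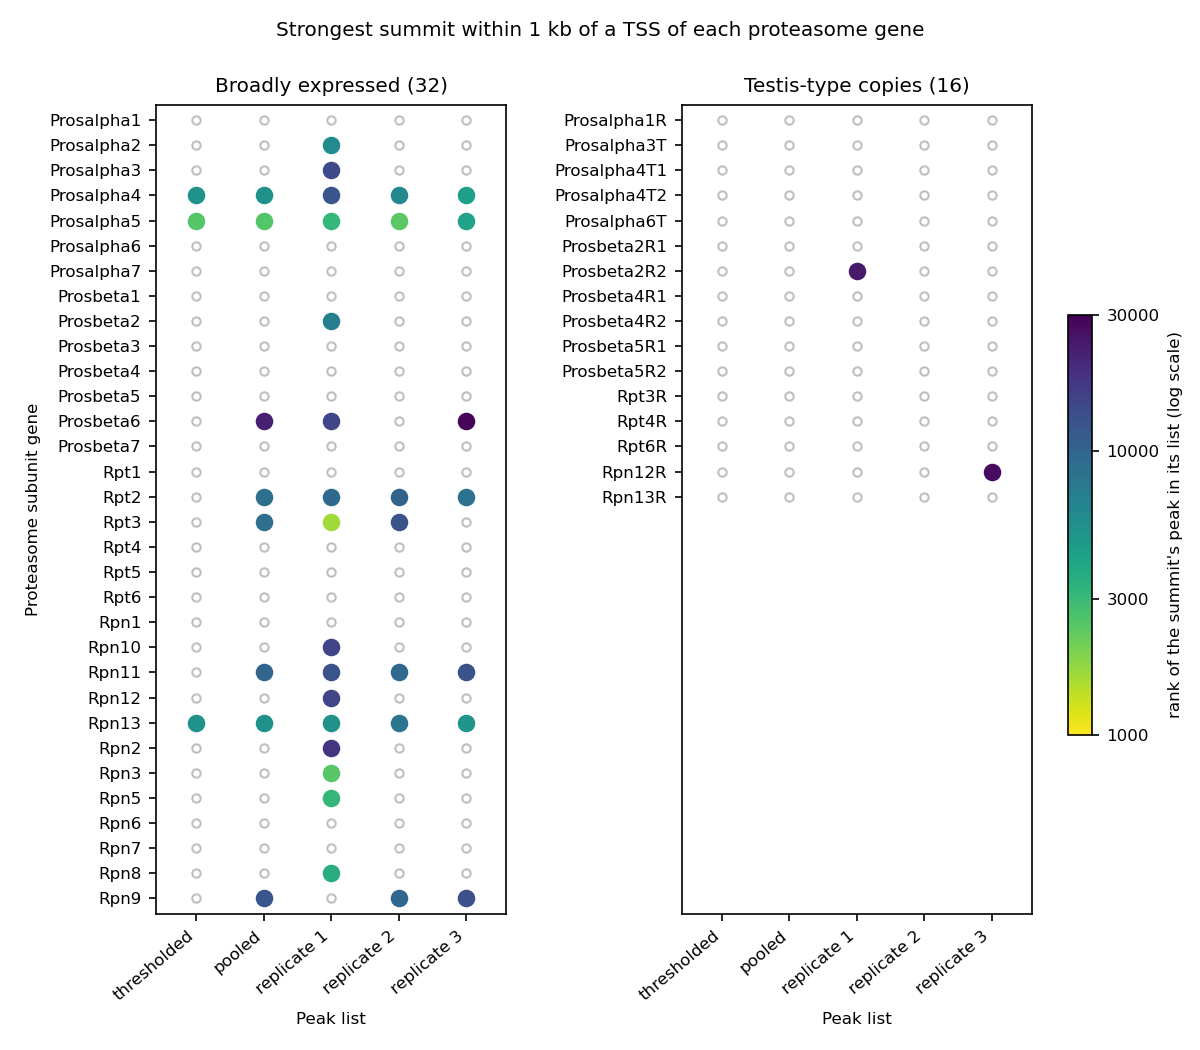
Each row is a proteasome gene and each column a peak list; a filled point is a summit within 1 kb of a TSS, coloured by the rank of its peak in that list on a log scale, and an open point is none. The 32 broadly expressed genes hold every filled point of the thresholded and pooled columns, and the 16 testis-type copies hold 1 in replicate 1 and 1 in replicate 3.

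Prosalpha5, an alpha ring subunit (FBgn0016697, 2R, 17412767 to 17413769, plus strand), had the strongest peak of the family in the thresholded and pooled lists. Its interval ran from 17411661 to 17412116, with the summit at 17411889, 878 bp upstream of the nearest TSS of the gene and in no annotated gene body. The authors' signal value was 307, and the peak ranked 2496 of the 30000 pooled peaks. In the libraries the best summit had signal 75.9 at rank 3104 in replicate 1, 135 at rank 2394 in replicate 2 and 82.6 at rank 4194 in replicate 3, at 868, 878 and 867 bp upstream. The 3 libraries thus placed it within 11 bp of each other. A weaker pooled summit stood 678 bp upstream with signal 99.8 at rank 12849, in an overlapping interval, so the pair need not be separate sites. Prosalpha5 was the only proteasome gene marked among the strongest 6578 peaks of all 3 libraries (1 of 48, 2.08%, against 2097 of 13945 genes in all). No other protein-coding TSS lay within 1 kb, the nearest being that of Vajk4 at 2563 bp.

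Prosalpha4, also of the alpha ring (FBgn0004066, X, 16276270 to 16277587, plus strand), had a thresholded summit at 16275945 in the interval 16275717 to 16276172, 325 bp upstream. Its signal was 192 at pooled rank 5343. The nearest TSS to this summit was that of kat80, a regulatory subunit of the microtubule-severing enzyme katanin, at 28 bp, and the summit lay inside kat80. Library signals were 31.6 at rank 12353 in replicate 1, 76.7 at rank 6054 in replicate 2 and 79.7 at rank 4444 in replicate 3. Replicates 2 and 3 placed it among their strongest 6578 peaks and replicate 1 did not. The printed stretch of Prosalpha4 starts 27 bases before this summit.

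Rpn13, a ubiquitin receptor of the cap (FBgn0033886, 2R, 13958545 to 13960404, minus strand), had its thresholded summit at 13960761 in the interval 13960533 to 13960988. The signal was 192 at pooled rank 5356, and the summit lay 357 bp upstream of the gene. It was 86 bp from the TSS of CtsL1, a cathepsin L protease of the lysosome, and inside that gene. Library signals were 54.7 at rank 5374 in replicate 1, 63.1 at rank 8044 in replicate 2 and 73.3 at rank 5076 in replicate 3, so replicates 1 and 3 had it among their strongest 6578 peaks. Of the 3 thresholded summits at proteasome genes, all 3 lay upstream of every annotated start of the gene and 1, at Prosalpha5, had the proteasome gene's own TSS as its nearest.

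The other 5 genes were marked in the pooled list only, at ranks below the end of the thresholded list. Rpt2, a base ATPase (FBgn0015282, 3R, 23929873 to 23931558, minus strand), had a summit at 23931471, 37 bp from its nearest TSS and inside the gene, with signal 135 at rank 8666. All 3 libraries held it, at ranks 9525, 10499 and 8242 in replicates 1, 2 and 3. Rpt3, also a base ATPase (FBgn0028686, X, 11125101 to 11126785, plus strand), had a summit at 11124889 with signal 133 at rank 8811, 212 bp upstream and nearer to the TSS of CG11122, at 163 bp. In replicate 1 it had peaks at ranks 1631 and 4023 with signals 109 and 65.3, in replicate 2 a peak at rank 12534 with signal 45.6, and in replicate 3 none within 1 kb. The best rank of any proteasome gene in any library was thus that of Rpt3 in replicate 1, at a gene with no marked summit in replicate 3.

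Rpn11, the deubiquitinase of the cap (FBgn0028694, 2L, 5058404 to 5059790, minus strand), had a pooled summit at 5060045, 255 bp upstream, with signal 119 at rank 10216. Its best library summits ranked 12622, 9610 and 12554 in replicates 1, 2 and 3 but lay at different places, 25 bp downstream, 175 bp upstream and 82 bp upstream. Rpn9, a scaffold subunit of the lid (FBgn0028691, 3R, 23731375 to 23733462, minus strand), had a summit at 23733226 between its 2 annotated starts and inside the gene, with signal 104 at rank 12125. Replicates 2 and 3 held it at ranks 9914 and 13031, and replicate 1 had no summit within 1 kb. Prosbeta6, a beta ring subunit without a proteolytic site (FBgn0002284, 3L, 16609400 to 16610418, minus strand), had a summit at 16610458, 40 bp upstream, with signal 62.3 at rank 22262. Replicate 1 held it at rank 14598, 6 bp upstream, replicate 3 at rank 28757, 63 bp upstream, and replicate 2 did not. Its DRE word begins 44 bases upstream of the TSS, and the pooled summit falls within the word.

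**Figure D2:**
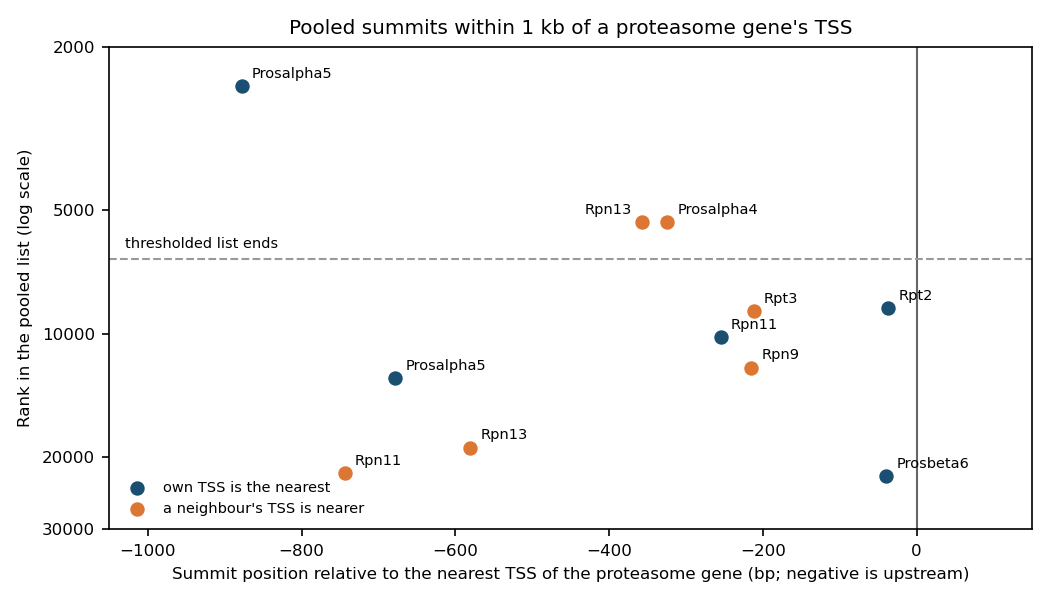
Each point is a pooled summit within 1 kb of a TSS of a proteasome gene, with its position relative to that gene's nearest TSS in bp on the horizontal axis and its rank in the pooled list on a log scale, strongest at the top; colour tells whether the nearest protein-coding TSS is that of the proteasome gene. Of the 11 summits, 9 lie upstream of all starts of their gene and 5 have that gene's TSS as the nearest, and 3 stand above the dashed line where the thresholded list ends.

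Asking that the proteasome gene's own TSS be the nearest left 1 of the 3 thresholded genes (2.08% of 48, against 15.8% of all genes) and 4 of the 8 pooled ones (8.33%, against 31.6%). Of all marked genes, 77.1% and 84.6% were kept under the same rule. Cytosolic ribosomal protein genes kept 96.7% and 91.5%, and mitochondrial ribosomal protein genes kept 21.7% and 34.4%. The broadly expressed proteasome genes stood in close gene neighbourhoods: 22 of 32 (68.8%) had the TSS of another gene within 1 kb, and in 22 of these 22 the nearest such gene was on the opposite strand. A TSS this close was found at 4 of 16 testis-type copies (25.0%) and 42.9% of all genes. It was also found at 58 of 92 cytosolic and 82.2% of mitochondrial ribosomal protein genes. The opposite strand was common in these sets too. It held the nearest such gene for 4811 of the 5985 genes with one in all. The counts were 54 of 58 for cytosolic and 57 of 60 for mitochondrial ribosomal protein genes. The median distance to the neighbouring TSS was 305 bp for broadly expressed and 2470 bp for testis-type genes, against 1380 bp for all genes. Proteasome genes with such a neighbour were marked in 5 of 26 cases in the pooled list (19.2%, against 41.2% of all genes with one), and those without in 3 of 22 (13.6%, against 34.4%). In the thresholded list the counts were 2 of 26 (7.69%, against 1616 of 5985 genes) and 1 of 22 (4.55%, against 15.6%). The share of the 48 genes was thus lower than in all genes both with and without a close neighbour. The 22 without one include 12 testis-type copies, of which 0 were marked. Among the broadly expressed genes alone, the pooled list marked 5 of 22 with a neighbour (22.7%) and 3 of 10 without (30.0%). The order of the 2 classes was then reversed, and the share without a neighbour was nearer to the 34.4% of all genes. The thresholded list marked 2 of 22 (9.09%) and 1 of 10.

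The 3 libraries differed in how many proteasome genes they marked. Replicate 1 marked 17 of 48 (35.4%, against 49.3% of all genes), replicate 2 marked 7 (14.6%, against 37.8%) and replicate 3 marked 8 (16.7%, against 39.0%). The mean over libraries was 22.2% ± 11.5 for proteasome genes and 42.1% ± 6.32 for all genes (SD, n = 3). Among the strongest 6578 peaks of each library, as many as the thresholded list holds, the counts were 7 in replicate 1 (14.6%, against 25.6%), 2 in replicate 2 (4.17%, against 20.1%) and 3 in replicate 3 (6.25%, against 20.4%). The mean was then 8.33% ± 5.51 for proteasome genes and 22.0% ± 3.09 for all genes (SD, n = 3). Without replicate 1 the mean count of 4.0 genes at this length was 2.5, beside 20.2% of all genes. The 48 proteasome genes stood below all genes in 3 of 3 libraries at both list lengths. The 32 broadly expressed genes did not in the whole list of replicate 1, where 16 of 32 were marked, against 49.3% of all genes, while 1 of the 16 testis-type copies was (6.25%). In the whole lists of replicates 2 and 3 the broadly expressed genes had 7 of 32 each (21.9%, against 37.8% and 39.0%). Replicate 1 also had more of its 30000 summits within 1 kb of a TSS, 33.7% against 29.0% in replicate 2 and 29.9% in replicate 3, and the part of this in its higher counts was not tested.

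Of the 48 genes, 29 were marked in no library (60.4%, against 43.5% of all genes) and 5 in all 3 (10.4%, against 30.2%). In replicate 1 alone, 10 were marked (20.8%, against 12.5% of all genes). These 10 include 4 with peaks among its strongest 6578. Rpn3, a lid subunit, had signal 86.9 at rank 2438, with the summit 32 bp downstream of its TSS and inside the gene. Rpn5, also of the lid, had signal 75.0 at rank 3171, 280 bp upstream and inside the neighbouring gene Hat1, a histone acetyltransferase. Rpn8, the partner of Rpn11 in the lid, had signal 69.6 at rank 3587, nearest to the TSS of the kinase gene Slik at 133 bp. Prosalpha2 had signal 51.5 at rank 5902, 258 bp upstream. The other 6 were Prosalpha3, Prosbeta2, Prosbeta2R2, Rpn2, Rpn10 and Rpn12, at ranks 14022, 7129, 23748, 17796, 15227 and 15182. In replicates 2 and 3 the nearest summits to the Rpn3 starts were 24225 and 17018 bp away, and to those of Rpn8 36500 and 36420 bp. Others of the 10 had nearer summits there. They lay at 1897 and 1910 bp for Prosalpha3, at 2277 and 2319 bp for Rpn5, and at 1659 bp for Rpn12 in replicate 3.

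At the other end, 15 of the 32 broadly expressed genes had no summit within 1 kb in any library (46.9%), close to the 43.5% of all genes. These were Prosalpha1, Prosalpha6 and Prosalpha7 of the alpha ring, Prosbeta1, Prosbeta3, Prosbeta4, Prosbeta5 and Prosbeta7 of the beta ring, the ATPases Rpt1, Rpt4, Rpt5 and Rpt6, and Rpn1, Rpn6 and Rpn7. The scaffold subunit Rpn6 had its nearest summits at 13596, 13611 and 13460 bp in replicates 1, 2 and 3. Rpt1 had them at 11633, 11667 and 11591 bp. For Prosbeta5, which holds the chymotrypsin-like site, they were at 1647, 9037 and 9042 bp. Among the 16 testis-type copies, 14 had none in any library. Prosbeta2R2 had its best summit only in replicate 1, at rank 23748 and 550 bp upstream, and Rpn12R only in replicate 3, at rank 26980 and 130 bp upstream. Both stood in the weaker part of their lists, and neither was met in another library. Prosalpha1 and Prosalpha1R lie close together on the same arm, and the labels do not say how reads shared by copies were placed.

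Distances describe the same genes without a fixed limit. The median distance of a proteasome gene's TSS to the nearest pooled summit was 8720 bp, against 3121 bp for all genes. It was 5604 bp for the broadly expressed genes (37 to 36448 bp) and 11752 bp for the testis-type copies (1630 to 51281 bp). For the thresholded summits the medians were 11289 bp for proteasome genes and 9214 bp for all genes, with 9170 bp for the broadly expressed and 31414 bp for the testis-type genes. The median of the broadly expressed genes was thus near that of all genes at the thresholded summits, though fewer of them had a summit within 1 kb. Prosbeta5R2 was farthest from a thresholded summit, at 151278 bp, and Prosbeta5R1 farthest from a pooled one, at 51281 bp. Pooled summits within 100 bp of a TSS were found at 2 of 48 proteasome genes (4.17%), Rpt2 and Prosbeta6, against 15.5% of all genes. At the 1 kb limit, the thresholded summit of Prosalpha5 at 878 bp was the last inside, and those nearest Rpn9 at 1314 bp, Rpn11 at 1426 bp, Prosalpha3 at 1902 bp and Prosbeta6 at 1965 bp were the next outside.

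**Figure D3:**
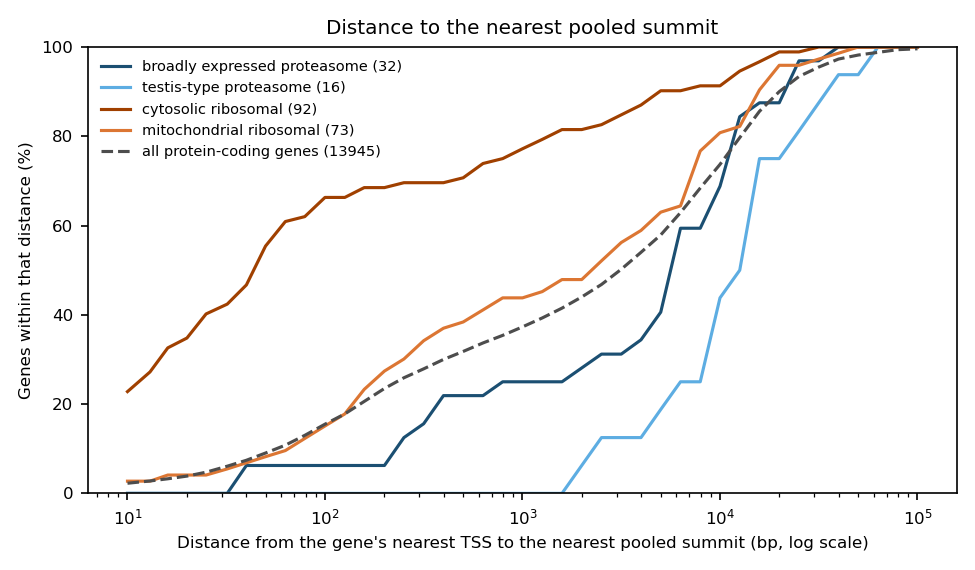
The lines give the share of genes, in percent, whose nearest pooled summit lies within the distance on the horizontal axis, in bp on a log scale, for 5 sets of genes. The broadly expressed and testis-type proteasome genes run below all protein-coding genes up to several kb, and the cytosolic ribosomal protein genes rise far above them within 100 bp.

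The ribosomal protein genes, which also encode large housekeeping complexes, had higher shares of marked genes than the proteasome. Cytosolic ribosomal protein genes were marked in 60 of 92 cases in the thresholded list (65.2%, 55.1 to 74.2%) and mitochondrial ribosomal protein genes in 23 of 73 (31.5%, 22.0 to 42.9%), while the broadly expressed proteasome genes had 3 of 32 (9.38%, 3.24 to 24.2%). At the strongest 6578 peaks of each library, the broadly expressed proteasome genes averaged 12.5% ± 8.27, the cytosolic ribosomal 68.1% ± 6.9 and the mitochondrial ribosomal 32.9% ± 4.94 (SD, n = 3). The highest library value of the broadly expressed proteasome genes, 21.9% in replicate 1, was below the lowest of each ribosomal set, 64.1% and 28.8%. Where a summit was present, the best pooled one lay at a median of 235 bp from the TSS at the 8 proteasome genes and of 27 bp at the cytosolic ribosomal protein genes, against 221 bp over all marked genes. The median rank of these best summits was 8738 for proteasome genes, 1529 for cytosolic ribosomal protein genes and 5461 for all marked genes. Where the own TSS had to be the nearest, 1 of 32 broadly expressed proteasome genes was marked in the thresholded list (3.12%), against 58 of 92 cytosolic and 5 of 73 mitochondrial ribosomal protein genes (6.85%). In the pooled list the shares were 12.5% for the proteasome, 70.7% for the cytosolic and 15.1% for the mitochondrial set. In the whole list of replicate 1 it was 31.2% for broadly expressed proteasome genes and 30.1% for mitochondrial ribosomal protein genes. Under that rule the higher share was thus large for the cytosolic set and small or absent for the mitochondrial set. These are descriptions of sets, and no test between them was made.

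**Figure D4:**
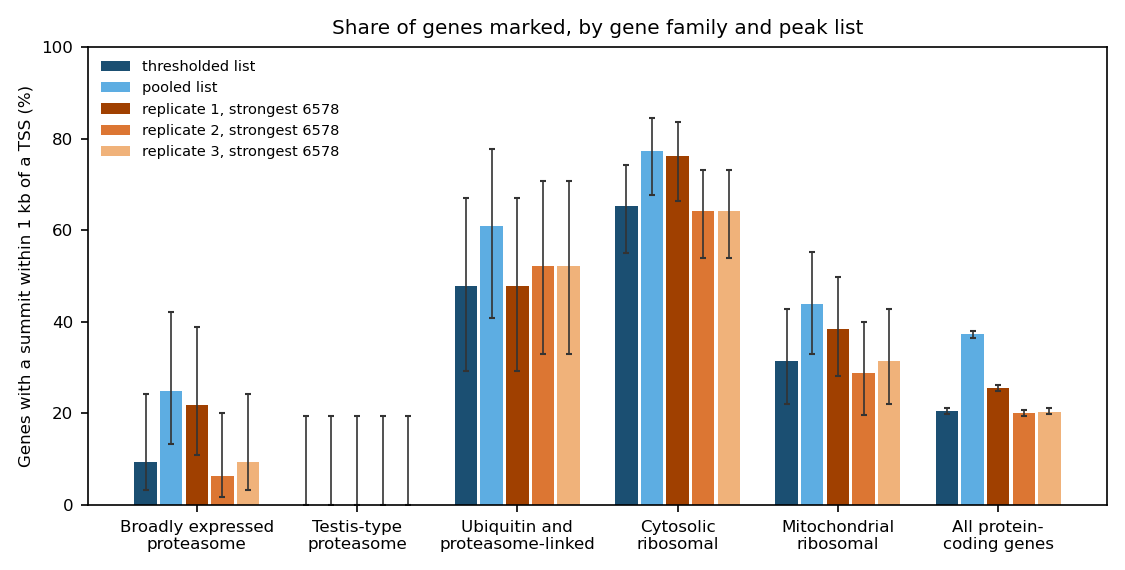
Bars give the share of marked genes, in percent, in 5 lists, for 6 sets of genes; error bars are 95% Wilson intervals, which cover counting error only. The broadly expressed proteasome genes stand between 6.25% and 25.0%, the testis-type copies at 0 in each of these lists, and the ubiquitin and proteasome-linked genes between 47.8% and 60.9%.

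The genes that serve the proteasome without being named as its subunits had a larger share marked, a difference that was not tested. Their list was chosen with earlier results of these data known. How many of them were marked with their own TSS as the nearest was not counted. Of 23 listed genes for ubiquitin, its processing, proteasome assembly and proteasome gene control, 11 were marked in the thresholded list (47.8%, 29.2 to 67.0%, against 20.5% of all genes) and 14 in the pooled list (60.9%, 40.8 to 77.8%, against 37.3%). The strongest was cnc, the transcription factor known for raising proteasome subunit genes under proteasome stress, with signal 779 at pooled rank 340, 474 bp upstream of a TSS. It had 8 thresholded summits within 1 kb of its 10 annotated starts, while proteasome genes have 1 to 3 starts. Its library ranks were 941, 255 and 317 in replicates 1, 2 and 3. Keap1, the inhibitor of cnc, had signal 540 at rank 822, 833 bp upstream of a TSS, and the TSS of kuk lay 299 bp from a start of Keap1 on the opposite strand. The DNA-binding partner of cnc, maf-S, had signal 306 at rank 2504, 8 bp downstream of its TSS. The TSS of rig lay 295 bp from that of maf-S on the opposite strand. All 3 of these regulators were thus marked in the thresholded list, cnc and Keap1 by peaks stronger than that of Prosalpha5, the strongest of the family in that list, and maf-S by a peak of nearly the same signal.

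Among the ubiquitin genes, the polyubiquitin genes Ubi-p63E and Ubi-p5E had signals of 379 at rank 1722 and 279 at rank 2953. The TSS of Sc2 lay 308 bp from a start of Ubi-p63E on the opposite strand. The ubiquitin ligase gene Ube3a had signal 373 at rank 1769, with the TSS of CG7600 at 203 bp on the opposite strand. TER94, the segregase that extracts ubiquitinated proteins, had signal 574 at rank 715, 86 bp downstream of a TSS. Its cofactor Ufd1 had signal 546 at rank 804, 9 bp upstream, with the TSS of NaPi-III at 132 bp on the opposite strand. The cap-associated deubiquitinase gene Uch-L5 had signal 410 at rank 1479, with the TSS of Jarid2 at 73 bp on the opposite strand. The core activator REG had signal 256 at rank 3422, 976 bp upstream of a TSS, with the TSS of sno 651 bp from a start of REG on the opposite strand, and the core assembly chaperone Pomp had signal 228 at rank 4138, 302 bp upstream. Pomp ranked 19714 in replicate 1 but 3314 and 5215 in replicates 2 and 3, and the other 10 ranked between 255 and 7427 in all 3 libraries. Pngl, Uba1 and Rad23 were marked in the pooled list only, at ranks 8814, 13054 and 15934. The small lid subunit gene Sem1, which the symbol rule does not take, the regulators PI31 and Usp14, Npl4, the shuttle Ubqn, p47, rngo and the ubiquitin fusion genes RpL40 and RpS27A had no pooled summit within 1 kb. Of these, RpS27A ranked 1033 in replicate 1 and 2920 in replicate 2, and Sem1 ranked 9528 and 9108 in replicates 2 and 3. RpL40 was marked in replicates 1 and 3, at ranks 27496 and 28812. PI31, Usp14, Npl4 and Ubqn were marked in replicate 1 alone, and p47 and rngo in no library.

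Promoter words were counted from 250 bases before to 50 after the most upstream start, on both strands. The DRE word TATCGATA, which is its own reverse complement, was present in 12 of 48 proteasome promoters (25.0%), against 9.36% of all promoters. All 12 were among the 32 broadly expressed genes (37.5%), with 0 of 16 testis-type copies. Cytosolic and mitochondrial ribosomal promoters held it in 30.4% and 20.5% of cases. Its first base lay between 217 bases upstream and 26 bases downstream of the start, with a median of 45 upstream, and 6 of the 12 lay within 100 bases upstream. The antioxidant response element TGACNNNGC was in 6 of 48 (12.5%, against 8.63%), motif 1 in 5 (10.4%, against 6.62%), TATAAA in 18 (37.5%, against 45.8%) and GAGAG in 9 (18.8%, against 29.7%). GAGAG stood at 6 of 16 testis-type copies (37.5%) and 3 of 32 broadly expressed genes (9.38%). CAGCTG was in 2 of 48 (4.17%, against 17.7%), while 54.8% of mitochondrial ribosomal promoters held it, and CACGTG was in 0 of 48 (against 4.2%).

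The DRE sites are shown for 8 of these 12 genes, to let the flanks be compared, with 11 bases on each side and capitals for the DRE word, from the same assembly and on the strand of the gene. They are at chr2L:10221324-10221353 (Prosalpha6, plus), chr3L:14999930-14999959 (Prosbeta2, plus), chr3L:16610444-16610473 (Prosbeta6, minus), chr3L:16582801-16582830 (Rpn12, plus), chr2L:19051582-19051611 (Rpn3, plus), chr3R:22462033-22462062 (Rpn7, minus), chr3R:23733418-23733447 (Rpn9, minus) and chr3R:23752819-23752848 (Rpt5, plus).
Prosalpha6 DRE: cccgaatccctTATCGATAcccgatacaca
Prosbeta2 DRE: ccatgaatataTATCGATAcaatatcgatt
Prosbeta6 DRE: gtatgtataccTATCGATAacgtttaagca
Rpn12 DRE: ttgttaaaataTATCGATAttaaagcacaa
Rpn3 DRE: tgttatcggagTATCGATAtcgaaaaggct
Rpn7 DRE: gcggtataattTATCGATAattttggggtc
Rpn9 DRE: gcccggttaaaTATCGATAttctcgcggat
Rpt5 DRE: atcgctgtcacTATCGATAagcgccggcga
Of these 8 genes, Prosbeta6 and Rpn9 were marked in the pooled list, and Prosbeta2, Rpn3 and Rpn12 in replicate 1 alone. Of all 12 proteasome genes with the word, 4 were marked in the pooled list (33.3%, against 43.1% of all genes with it), and of the 36 without it also 4 (11.1%, against 36.7% of all genes without it). The pooled share was thus below that of all genes in both classes. The 36 include all 16 testis-type copies, of which 0 were marked in the pooled list, so the 2 classes also differ in kind of gene. In the whole list of replicate 1, 7 of the 12 were marked (58.3%, near the 60.2% of all genes with the word). Of the 36, replicate 1 marked 10 (27.8%, against 48.2%). A match to these letters is a description of the promoter and not a measured site.

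The genes are spread over 5 chromosome arms, with 8 on 2L, 13 on 2R, 7 on 3L, 14 on 3R and 6 on X. Of these, 1, 2, 1, 2 and 2 were marked in the pooled list, beside 35.5%, 31.7%, 39.6%, 33.1% and 49.5% of all genes of the same arms. Marked proteasome genes were thus found on each of the 5 arms that hold the family.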

How the data were processed

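The 3 ChIP-seq libraries form 1 group of biological replicates numbered by the labels. A label describes them as input controls, but their antibody is given as sqz, their assay as TF ChIP-seq, and another alignment serves as control in the headers, the same for every list; they were used as ChIP libraries. The authors deposited dm6 peaks of each library and of the pool (30000 peaks in each list) and, per the file headers, a list of 6578 thresholded by irreproducible discovery rate. Aligner, caller and threshold: not given in the sources used here. Signal values of peaks are as the authors deposited them, on a scale not stated, and served only for ranks and descriptions inside 1 list at a time. The other column used, the summit offset that the authors deposited with each peak, was added to the peak start. All thresholded peaks were the 6578 strongest pooled peaks, with signals of 165 or more. Read depth is unknown, since peak lists hold no read counts.

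Genes and TSSs came from Ensembl release 115; all 48 symbols were also in the RefSeq table. A gene was marked by a summit within 1 kb of any of its TSSs. Shares were given with 95% Wilson intervals, which cover counting error only, and a count of 0 with a limit of 3 counts of the total. Libraries were also compared at their strongest 6578 peaks. Promoters were read from the genome sequence. No test was run, as 1 group gives no contrast. Counting was tested on simulated peaks. Python 3.11.15, numpy 2.4.6, pandas 2.3.3 and scipy 1.17.1 were used. In full were given the genes marked in the thresholded list or among the 10 best pooled ranks of the family, and listed pathway genes with a thresholded summit; other named genes were chosen after their values were seen. Ufd1-like was matched to Ufd1 by synonym. Protein identity between copies was not analysed here. The members, lists and words were chosen with earlier results of these data known. Alternatives covered the TSS window, gene starts, peak sets, list length, neighbours, word window and leaving out a replicate.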

Additional observations from a re-analysis of the deposited data

How the results depend on the processing

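Of 38 alternatives, 20 left a count of genes within 1.5 times the reported count, or a word's share within the 95% interval of the reported share, and 18 moved it further. In the thresholded list (3 of 48, against 20.5% of all genes) the count was 7 with a window of 2 kb (25.2%) and 7 when gene bodies widened by 1 kb were used (25.9%). It was 1 with the strongest 3289 peaks (13.6%), 1 with peaks met within 100 bp among the strongest 6578 of all 3 libraries (12.7%), 1 where the own TSS was nearest (15.8%) and 1 among the 22 genes with no other TSS within 1 kb (15.6%). Asking for thresholded peaks met in 2 of the libraries gave 1 to 2, against 14.3 to 15.2% of all genes. The 1 was where replicate 3 was not asked for (14.4%). These peaks still came from the list of all 3 libraries, so the step does not show a list made without a replicate. In the pooled list (8) the count was 5 with the strongest 10000 peaks (25.2%) and 4 where the own TSS was nearest (31.6%). The library mean of 4.0 genes was 10.7 over whole lists (42.1%) and 8.67 over the strongest 15000 peaks (32.6%). Leaving out a replicate, it was 2.5 to 5.0 (20.2 to 23.0%), with 2.5 without replicate 1 (20.2%). The broadly expressed genes had 7 in the thresholded list at 2 kb, and the testis-type copies 1 in the pooled list at 2 kb (44.0%). In the 201 bases around the 8 best summits, DRE stood at 12.5%, the antioxidant response element at 0.0%, TATAAA at 62.5% and CAGCTG at 25.0%. In all these counts of marked genes the proteasome share stayed below that of all genes. The cause of each move was not tested. No paired analysis was possible because the libraries form 1 group. Depth is unknown, so weak peaks at proteasome genes cannot be weighed against coverage.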
